A study of Mus musculus with 3 samples.

Results

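Ad4BP/SF-1 peaks were examined at 6 genes that set the activity of the sterol regulatory element-binding proteins (SREBPs): *Srebf1*, *Srebf2*, *Scap*, *Insig1*, *Insig2*, and *Mbtps1*. The genes were listed by name for their roles, not by a threshold on the peaks, though with earlier results of these data known, from the 21938 protein-coding genes of the GENCODE M21 annotation of the mouse genome build mm10. A gene was given every peak that overlapped its body or a margin of 50 kb before or after it. By this rule the 6 genes took 14 of the 5721 peaks of vehicle-treated cells and 6 of the 4025 peaks of cAMP-treated cells.

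SREBPs are made as membrane proteins of the endoplasmic reticulum. SCAP, the product of *Scap*, senses cholesterol and escorts SREBPs to the Golgi in COPII vesicles, whereas the INSIG proteins, encoded by *Insig1* and *Insig2*, hold SCAP back when sterols are plentiful. In the Golgi, site-1 protease, encoded by *Mbtps1*, makes the first cut that leads to release of the active factor. *Srebf2* encodes SREBP-2, which mainly drives cholesterol synthesis, and *Srebf1* encodes SREBP-1, which mainly drives fatty acid synthesis.

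The study mapped by chromatin immunoprecipitation and sequencing (ChIP-seq) where Ad4BP/SF-1, the nuclear receptor NR5A1 of steroid-producing cells, lies in Leydig cells, the androgen-producing cells of the testis. The cells came from pooled male ICR mice, 9 weeks of age, and were kept in culture with vehicle or cAMP, the second messenger of luteinizing hormone. The form, dose, and time of the cAMP treatment are not given in the sources used here, and the input DNA sample was not analysed here. Each condition is represented by 1 library, and the conditions therefore cannot be compared against any spread between replicates. Each peak carries a MACS score, which is −10 times the log10 of its p-value. The lists hold no read numbers and depth is unknown, so scores of different lists are not on a common scale, and each peak is also described by the percentage of its own list that it outscores. Absence of a peak means that the deposited list has none there, and is no measure of absent binding. The lowest scores in the lists correspond to a stricter p-value than the threshold stated in the methods, and whether weaker peaks were removed before deposit is not stated. Of 7 loci of Leydig cell genes, 4 (*Star*, *Cyp11a1*, *Cyp17a1*, and *Nr5a1*) had a vehicle peak and 3 a cAMP peak, beside 36.7% and 28.9% of all protein-coding genes, so that these counts are a weak check of the immunoprecipitation.

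At least 1 vehicle peak was present at 4 of the 6 genes (*Srebf1*, *Srebf2*, *Scap*, and *Mbtps1*), beside 36.7% of all protein-coding genes. A cAMP peak was present at 3 genes (*Srebf2*, *Scap*, and *Mbtps1*), beside 28.9% of all, and the same 3 genes had a peak in both lists, beside 22.5% of all. *Insig1* and *Insig2* had no peak in either list. Inside the gene body itself, peaks of each list were found at *Scap* and *Mbtps1* only, that is at 2 of the 6 genes, beside 12.6% of all genes for vehicle and 9.16% for cAMP. With 6 genes, 1 gene more or fewer moves these shares widely, and no test was made.

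**Figure D1:**
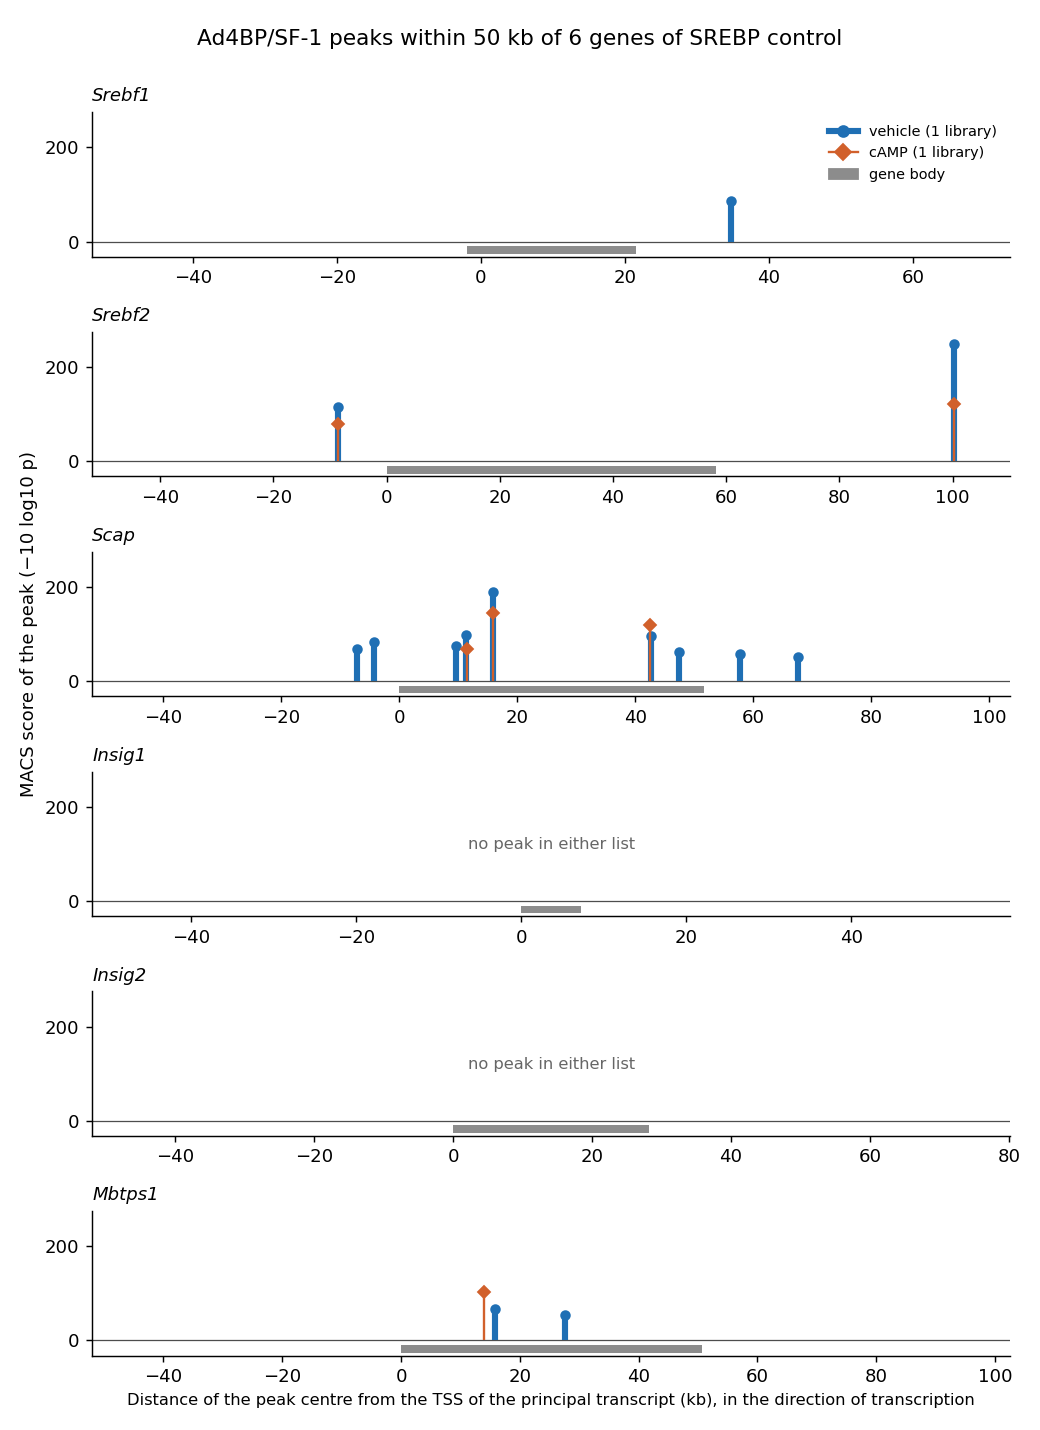
Peaks of the vehicle list (blue, wide stems with circles) and the cAMP list (orange, thin stems with diamonds) at the 6 genes. The horizontal axis is the distance of the peak centre from the transcription start site (TSS) of the principal transcript in kb, positive in the direction of transcription, the vertical axis is the MACS score, and grey bars are gene bodies. *Scap* holds 9 vehicle and 3 cAMP peaks, and no peak falls within 50 kb of *Insig1* or *Insig2*.

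The sequences that the results turn on are shown first, because nearly every peak at these genes held a copy of the 8-base Ad4BP/SF-1 consensus YCAAGGYC (Y stands for C or T, which gives TCAAGGTC, TCAAGGCC, CCAAGGTC, and CCAAGGCC, searched for on both strands). Each line gives 40 bases of mm10 as a copy reads 5′ to 3′ on its own strand, with the copy in capitals.
Srebf2, 8.49 kb upstream of the TSS, chr15:82138647-82138686, minus strand: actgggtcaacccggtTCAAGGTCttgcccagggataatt
Srebf2, 41.7 kb downstream of the gene, chr15:82247381-82247420, plus strand: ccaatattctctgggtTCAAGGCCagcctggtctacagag
Srebf1, 12.8 kb downstream of the gene, chr11:60185923-60185962, plus strand: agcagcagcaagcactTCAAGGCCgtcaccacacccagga
Scap, intron 1, chr9:110349228-110349267, plus strand: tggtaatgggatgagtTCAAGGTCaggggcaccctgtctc
Mbtps1, intron 3, vehicle peak, chr8:119542971-119543010, plus strand: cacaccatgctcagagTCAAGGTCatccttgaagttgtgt
Mbtps1, intron 3, cAMP peak, chr8:119544907-119544946, plus strand: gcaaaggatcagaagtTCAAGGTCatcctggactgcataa

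*Srebf2*, the gene of SREBP-2, lies on the plus strand of chromosome 15 from 82147181 to 82205379 (58.2 kb, 19 exons). Its 2 vehicle peaks both overlapped a cAMP peak, and both lay outside the gene. The nearer vehicle peak, from 82138426 to 82138951, was centred 8.49 kb upstream of the TSS and scored 115.65, rank 1157, above 79.8% of the vehicle list. Its cAMP counterpart, from 82138464 to 82138864, scored 80.09, rank 1439, above 64.2% of the cAMP list. The counterparts shared 401 bp, which is the whole of the cAMP peak, and their centres were 24 bp apart. This place is inside intron 6 of the neighbouring gene *Ccdc134*, but no protein-coding gene has a TSS closer to the peak than *Srebf2*. The peak held 1 copy of the consensus, TCAAGGTC on the minus strand, whose centre was 21 bp from the centre of the vehicle peak and 3 bp from that of the cAMP peak.

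The farther *Srebf2* peak scored highest of all 14 vehicle peaks at the 6 genes. It ran from 82247122 to 82247586, 41.7 kb past the end of the gene and within no annotated protein-coding gene, and scored 249.98, rank 166, above 97.1% of the vehicle list. The cAMP counterpart, from 82247189 to 82247589, scored 122.28, rank 564, above 86.0% of its list, with 398 bp shared and centres 35 bp apart. The nearest protein-coding TSS was that of *Cenpm*, which encodes a centromere protein, at 2606 bp. The *Srebf2* region also holds the whole or part of 6 other protein-coding genes, so that the assignment of this peak to *Srebf2* rests on the 50 kb window alone. The next peak beyond the window was 144 kb past *Srebf2* in both lists, nearest to the TSS of *Smdt1*.

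*Srebf1*, the gene of SREBP-1, lies on the minus strand of chromosome 11 from 60199089 to 60222581 (23.5 kb, 19 exons). It had 1 vehicle peak and no cAMP peak. The peak, from 60185607 to 60186250, lay 12.8 kb past the end of the gene and scored 86.4, rank 2001, above 65.0% of the vehicle list. All 644 bp of it were coding sequence of exon 3 of *Rai1*, the neighbouring gene that encodes a chromatin protein, whose TSS was 10049 bp away. The nearest cAMP peak was 398 kb from this peak, and 412 kb from *Srebf1*, a distance that 26.5% of protein-coding genes reach or exceed in the cAMP list. The peak held 1 copy of the consensus, TCAAGGCC, 15 bp from its centre.

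*Scap* lies on the plus strand of chromosome 9 from 110333288 to 110384950 (51.7 kb, 23 exons). It had 9 vehicle peaks and 3 cAMP peaks, more in each list than any other of the 6 genes. As many vehicle peaks were assigned to 12 protein-coding genes in all, *Scap* included, or 0.0547% of them, with neighbouring genes that share peaks counted separately. At least 3 cAMP peaks were assigned to 581 genes, or 2.65%. Counting only the gene body, *Scap* held 5 vehicle peaks, a number reached by 38 genes (0.173%), and 3 cAMP peaks, a number reached by 99 genes (0.451%). The mean was 0.628 vehicle and 0.409 cAMP peaks per protein-coding gene. The 9 vehicle peaks spanned 75.1 kb, and in the genome 2 separate stretches no longer than that span held as many vehicle peaks. In the other, on chromosome 8, the 9 peaks lay closer together than at *Scap*, from 70522492 to 70565197. The *Scap* region was looked at in this way because its peaks had been seen to lie close together. Longer genes have larger windows, and the counts were not adjusted for length.

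**Figure D2:**
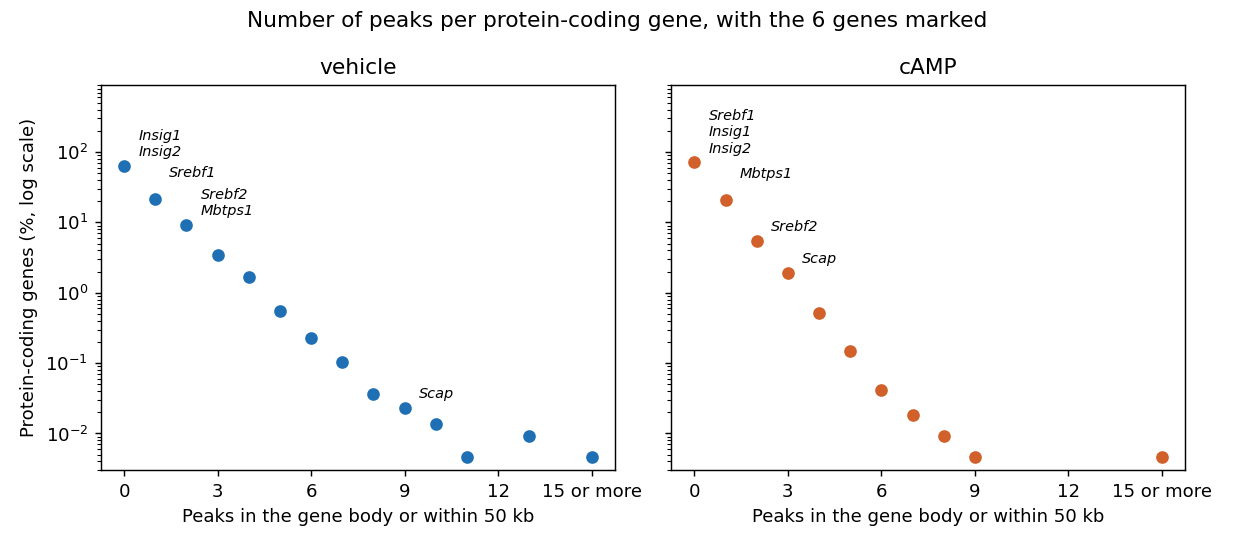
Percentage of all 21938 protein-coding genes (vertical axis, log scale) with each number of peaks in the gene body or within 50 kb (horizontal axis, with the last class holding 15 or more), for vehicle (left) and cAMP (right), with the 6 genes written at their number. *Scap*, with 9 vehicle peaks, is in the sparse tail of the left panel, and with 3 cAMP peaks it stands nearer to the bulk of the right panel.

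The 3 *Scap* regions with a peak in both lists were all inside the gene. In intron 1, the vehicle peak from 110348900 to 110349531 scored 189.64, rank 357, above 93.7% of its list. Its cAMP counterpart, from 110348950 to 110349521, scored 144.54, rank 384, above 90.5%, and was the highest cAMP score at the 6 genes. The pair shared 572 bp with centres 20 bp apart, 15.9 kb past the TSS of the principal transcript. Also in intron 1, the vehicle peak from 110344375 to 110345112 scored 98.2, above 72.5% of its list, and the cAMP peak from 110344514 to 110345050 scored 68.12, above 50.3%. These centres were 11.4 kb past the principal TSS, but 544 bp and 583 bp from the TSS of another annotated coding transcript of *Scap*. No other peak at the 6 genes had its centre within 1 kb of a protein-coding TSS.

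In intron 8, the vehicle peak from 110375666 to 110376241 scored 96.58, rank 1622, above 71.6% of its list. The cAMP counterpart, from 110375670 to 110376110, scored 119.41, rank 604, above 85.0%. Of the 5 overlapping pairs at the 6 genes, it was the pair with the higher standing in the cAMP list, while the other 4 stood higher in the vehicle list. With 1 library per condition these differences in standing were not tested. At 42.6 kb past the principal TSS, the intron 8 peak was closer to the TSS of *Ptpn23*, a neighbour that encodes a phosphatase-like protein of endosomal sorting, at 10294 bp.

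The other 6 vehicle peaks at *Scap* had no cAMP counterpart. A pair of them were upstream, from 110325962 to 110326557 with a score of 68.47 and from 110328786 to 110329458 with a score of 82.47, centred 7.1 and 4.23 kb before the principal TSS. The second of these was inside the noncoding gene *Gm42638*. Intron 1 held one more, from 110342778 to 110343238, with a score of 74.78. Exon 16 held the centre of the peak from 110380632 to 110381042, which scored 62.73 and had 251 of its 411 bp in coding sequence. The last peaks were past the gene, inside *Ptpn23*, from 110390915 to 110391367 in intron 10 with a score of 56.88 and from 110400772 to 110401089 in intron 1 with a score of 51.17. They outscored from 3.9% to 61.3% of the vehicle list, so that this group ran from the bottom of the list to just above its middle.

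The upstream *Scap* peak at 4.23 kb and the intron 8 peak were found to lie on copies of one another. Aligned in the same orientation, 110328905 to 110329253 and 110375674 to 110376007 had 314 identical bases in 351 alignment columns (89.5%). A BLAST search of the assembled mm10 chromosomes with either copy, at a largest E value of 1e-10, returned 2 places, the copy itself and the other one. A stretch of 102 bases around the consensus copies of each peak is shown here. None of these consensus copies was marked as repeat in the genome file. That file marked 18.0% of the bases of the upstream vehicle peak and 3.12% of those of the intron 8 vehicle peak. Each stretch held 2 copies of the consensus that start 62 bp apart on opposite strands, and all differences between the stretches, 6 in number, were outside the consensus copies (94.1% identical). They are shown on the plus strand with the consensus copies in capitals, where GACCTTGA is TCAAGGTC read from the other strand.
Scap, 4.23 kb upstream of the TSS, chr9:110329094-110329195, plus strand: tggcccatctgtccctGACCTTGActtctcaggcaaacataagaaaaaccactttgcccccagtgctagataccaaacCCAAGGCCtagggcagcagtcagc
Scap, intron 8, chr9:110375846-110375947, plus strand: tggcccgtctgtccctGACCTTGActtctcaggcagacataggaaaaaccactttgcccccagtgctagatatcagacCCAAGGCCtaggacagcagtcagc
Both stretches lay in a vehicle peak, with scores of 82.47 upstream and 96.58 in intron 8. The intron 8 stretch also lay in a cAMP peak, with a score of 119.41, and no cAMP peak was called at the upstream one. Reads that fit more than 1 position had been removed by the authors, and how many reads of these copies were lost in that way is unknown. The alignment was made after the sequences had been seen.

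*Mbtps1*, the gene of site-1 protease, lies on the minus strand of chromosome 8 from 119508156 to 119558735 (50.6 kb, 23 exons). It had 2 vehicle peaks and 1 cAMP peak, all inside the gene and none overlapping a peak of the other list. The vehicle peak in intron 3, from 119542808 to 119543190, scored 67.08, rank 3340, above 41.6% of its list, and 121 bp of it were coding. The cAMP peak, from 119544551 to 119545074, was in the same intron and scored 102.83, rank 872, above 78.3% of its list. The gap between them was 1361 bp. The remaining vehicle peak, from 119530901 to 119531274 with its centre in exon 11, scored 55.27, above 16.3% of the list, and had 162 of its 374 bp in coding sequence. For each of the 3 peaks *Mbtps1* was the protein-coding gene with the nearest TSS, 27640, 15728, and 13915 bp away in order along the chromosome. Just outside the window, 64.7 kb past the end of *Mbtps1*, both lists held a peak nearest to the TSS of *Necab2*, with a vehicle score of 137.33 and a cAMP score of 66.11.

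*Insig1* (chromosome 5, 28071363 to 28078662, plus strand, 7.3 kb, 5 exons) and *Insig2* (chromosome 1, 121304353 to 121332589, minus strand, 28.2 kb, 6 exons) encode the proteins that retain SCAP. The nearest peaks to *Insig1* were 693 kb away in the vehicle list, with a score of 68.76, and 630 kb away in the cAMP list, with a score of 55.5, and both were nearest to the TSS of *Shh*, which encodes a developmental signal. As far or farther from a peak were 14.6% of protein-coding genes for vehicle and 18.5% for cAMP. Distances for vehicle are over 21755 genes, because that list has no peak on chromosome Y and its genes have no distance, and those for cAMP are over all 21938. *Insig2* had its nearest vehicle peak 155 kb upstream, near *Htr5b*, and its nearest cAMP peak 768 kb downstream, near *Marco*, distances reached by 40.8% and 15.6% of genes. The median protein-coding gene was 101 kb from a vehicle peak and 146 kb from a cAMP peak. Neither *Insig1* nor *Insig2* had another protein-coding gene within 50 kb, whereas the other 4 genes had from 2 to 6.

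In the vehicle list, 5 of the 14 peaks at the 6 genes had a counterpart that shared at least 1 bp, beside 37.9% of the whole list. In the cAMP list, 5 of the 6 peaks had one, beside 53.8% of the list, and the exception was at *Mbtps1*. The vehicle peaks with a counterpart scored from 96.58 to 249.98, median 115.7, and those without one from 51.17 to 86.4, median 67.08, so that the groups did not overlap. The whole vehicle list had the same order of medians, 96.58 and 64.99, but in it the groups overlapped. For example, a *Star* vehicle peak of 69.68 had a counterpart, and a *Dhcr7* vehicle peak of 219.19 had none. In the cAMP list the 5 peaks with a counterpart scored from 68.12 to 144.54, median 119.4, and the peak without one, 102.83, was among them. The medians over the whole cAMP list were 84.11 and 58.72. All 6 cAMP peaks and 8 of the 14 vehicle peaks scored above the median of their list.

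**Figure D3:**
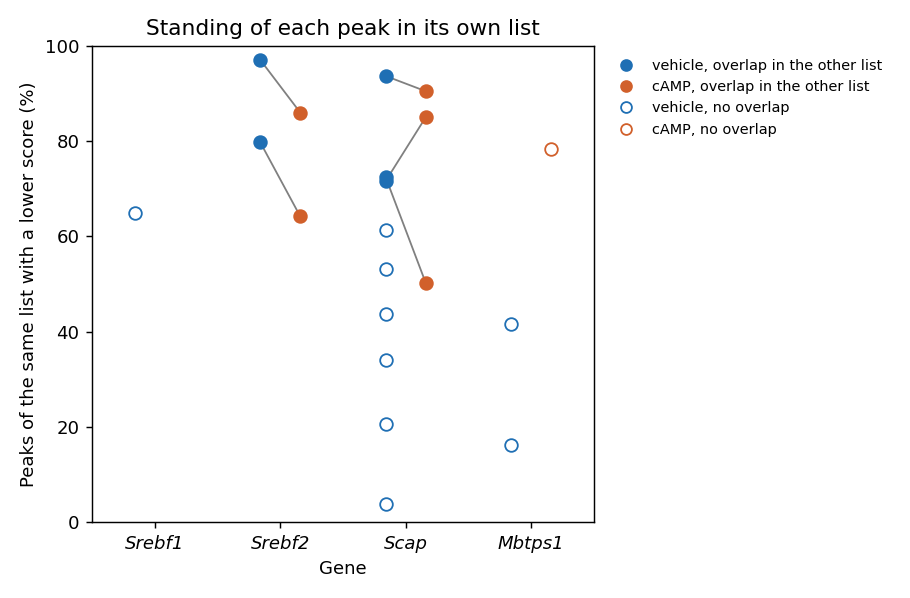
Percentage of the peaks of the same list that each peak outscores (vertical axis), by gene (horizontal axis), for vehicle (blue) and cAMP (orange), 1 library each. Filled circles overlap a peak of the other list and are joined to it by a line, and open circles do not. All filled vehicle circles are at or above 71.6% and all open ones at or below 65.0%.

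The consensus was present in 13 of the 14 vehicle peaks and in all 6 cAMP peaks at the 6 genes, beside 80.4% and 77.1% of the whole lists. Of 500-bp windows over the chromosomes of these genes, 8.97% held it. The vehicle peak without it, in exon 11 of *Mbtps1*, held the shorter CAAGGTC. The median distance of the nearest copy from the peak centre was 25 bp for the vehicle and 18.5 bp for the cAMP peaks, beside 36 bp in either whole list. A match of these letters is a description of the sequence and not a test of binding. The sterol regulatory element of the LDL receptor promoter, searched for as TCACNCCAC on both strands, was in none of the 14 and none of the 6 peaks. It was in 2.01% of all vehicle peaks, 2.29% of all cAMP peaks, and 1.35% of the 500-bp windows.

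Part of the consensus copies at these genes lay in sequence that the genome file marks as repeat by lower-case letters, which was looked at after the sequences had been seen. In the vehicle peaks this held for 6 of 16 copies (37.5%), beside 36.1% of copies in all vehicle peaks. In the cAMP peaks it held for 5 of 8 copies (62.5%), beside 40.9% in all. The highest-scoring *Srebf2* peak and the highest-scoring *Scap* peak each had their only copy in such sequence. In 3 vehicle peaks, at *Srebf2* and *Scap*, the copy was TCAAGGCC followed directly by agcctgg, as in the *Srebf2* sequence above and in these lines.
Scap, 7.1 kb upstream of the TSS, chr9:110326249-110326288, plus strand: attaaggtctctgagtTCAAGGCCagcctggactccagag
Scap, intron 1, chr9:110344813-110344852, minus strand: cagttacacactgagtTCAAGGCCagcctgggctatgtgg
Copies with that continuation made up 3 of 16 (18.8%) in the vehicle peaks at the 6 genes and 2 of 8 in the cAMP peaks, beside 5.82% and 6.22% of the copies in the whole lists.

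**Figure D4:**
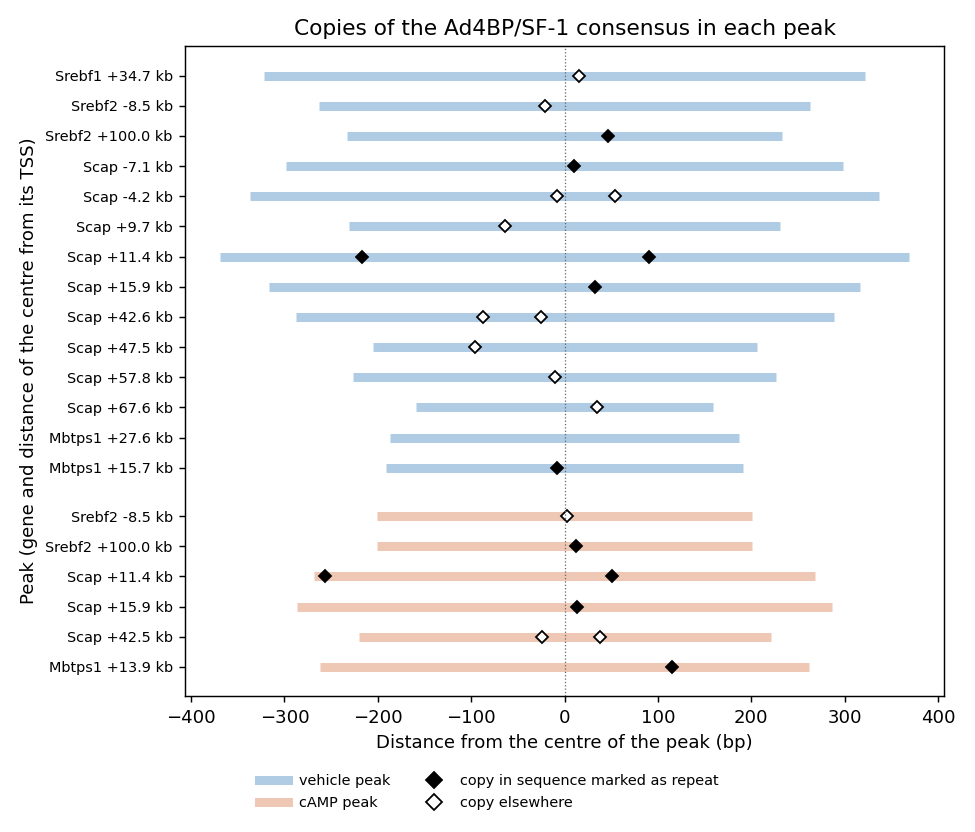
Position of each consensus copy relative to the centre of its peak in bp (horizontal axis) for the 14 vehicle peaks (blue bars) and 6 cAMP peaks (orange bars), where the bar is the width of the peak and the label gives the gene and the distance of the peak from its TSS. Filled diamonds are copies in sequence marked as repeat, and open diamonds are other copies. The exon 11 peak of *Mbtps1* has none.

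Other genes of the same pathway were counted by the same rule, from lists made by name. Of 12 further genes that act on SREBPs, SCAP, or INSIG, 3 had a vehicle peak and 2 a cAMP peak, beside 36.7% and 28.9% of all protein-coding genes. *Rnf139*, which encodes a ubiquitin ligase with a sterol-sensing domain, had a vehicle peak of 91.29. It overlapped the gene and was centred past the end of the principal transcript. *Syvn1*, the gene of a ubiquitin ligase of the endoplasmic reticulum, had a cAMP peak of 56.15 at 22.3 kb upstream. *Atf6*, whose product is cut by the same proteases as SREBPs, had a vehicle peak of 52.89 in intron 15.

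Of 10 genes of the COPII coat, which forms the vesicles that carry SCAP and SREBPs, 2 had a vehicle peak, 4 a cAMP peak, and 1 both, beside 36.7%, 28.9%, and 22.5% of all genes. *Sar1a*, the gene of the GTPase that starts coat assembly, had the highest scores, 184.18 in the vehicle and 84.47 in the cAMP list, for overlapping peaks 11.2 and 11.3 kb past the gene. *Sec24c*, the gene of a cargo-binding coat subunit, had a vehicle peak of 92.68. *Sec24a* and *Sar1b* shared 1 cAMP peak of 72.55.

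Of 8 genes of other proteins with a sterol-sensing domain, the part that SCAP also has, 4 had a vehicle peak, 5 a cAMP peak, and 2 both, against the same shares of all genes. *Dhcr7*, the last enzyme of cholesterol synthesis by one route, had a vehicle peak of 219.19 in intron 2. *Disp1*, the gene of a protein that releases Hedgehog signals, had a peak in each list, with scores of 116.48 and 75.4, and the overlapping peaks began 45.1 kb past the gene for vehicle. *Npc1*, the gene of the lysosomal cholesterol exporter, had a vehicle peak of 105.37 at 40.5 kb past the gene and a separate cAMP peak of 53.58 in intron 1. *Ptch1*, the gene of the Hedgehog receptor, had a cAMP peak of 91.41. Of 5 genes for sterol transfer and binding proteins, 3 had a vehicle peak, 1 a cAMP peak, and 1 both, again beside 36.7%, 28.9%, and 22.5% of all genes. In lists this short, 1 gene moves the share by a large step, and no list was tested. The one with both was *Gramd1b*, whose product carries cholesterol from the plasma membrane to the endoplasmic reticulum, with a vehicle peak of 115.7 in intron 2 that overlapped a cAMP peak of 104.25. Its highest cAMP score, 123.29, was at another place, without a vehicle counterpart.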

How the data were processed

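Leydig cell chromatin was immunoprecipitated with an antibody against Ad4BP/SF-1 and sequenced, with 1 library each for vehicle and cAMP. The authors mapped reads to mm10 with Bowtie (0.12.8 in the submitters' processing notes, which also name FastQC 0.11.5), removed reads that fit several places, and called peaks with MACS. Whether the input served as control is not stated. The deposited score of each peak is −10 log10 of its p-value. The lowest deposited scores were 50.0 and 50.01, which is a p of 1e-05, stricter than the threshold in the methods, and whether peaks were removed before deposit is not stated. Depth is unknown.

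Genes and exons were taken from GENCODE M21, with places numbered on the principal transcript, and sequences from the RefSeq copy of the same assembly, in which lower case marks repeats. All peaks lay inside its chromosomes. Overlaps, distances, and matches were computed with Python 3.11.15, numpy 2.4.6, pandas 2.3.3, pysam 0.24.0, and samtools 1.23.1, plots with matplotlib 3.10.9, and copies were searched with BLAST 2.17.0. Overlap meant at least 1 bp. Coordinates count from 1. The functions were tested on simulated data. Genes named are the 6 genes, hosts of their peaks, genes with the nearest TSS, and up to 4 genes per pathway list with the highest scores, and *Smdt1*, *Necab2*, *Shh*, *Htr5b*, and *Marco* were named after their values were seen. One gene of these lists is not reported here by name. The genes and lists were chosen with earlier results of these data known. No test was run between libraries.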

Additional observations from a re-analysis of the deposited data

How the results depend on the processing

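Other windows, scores, overlaps, and forms of the consensus were tried, and 38 of the recomputed counts stayed within 1.5 times the reported one while 8 did not. With the gene body alone, 7 vehicle peaks in place of 14 remained and genes with a vehicle peak, or with a peak in either list, fell from 4 to 2. With 100 kb on either side, cAMP peaks rose from 6 to 10. With scores of at least 75 the vehicle peaks were 7, and with at least 100 they were 3, at 2 genes. With TCAAGGTC as the only form, 8 vehicle peaks in place of 13 held it. Smaller windows, higher scores, and a single form of the consensus admit fewer peaks by construction. For the gene body, the shares of all genes with a peak of each list are given above. Under the other settings no share of all genes or of a whole list is given, so these counts describe the 6 genes only. *Insig1* and *Insig2* had no peak under any of these windows. No paired analysis was possible because each condition has 1 library, and leaving out a library would leave no list for that condition. Depth is unknown, so a peak in one list alone cannot be told apart from a difference in depth.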
